A study of Mus musculus with 6 samples.

Results

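The clustered histone genes of the mouse were examined in lung endothelial cells (ECs) taken 7 days after the lung of one side had been removed by surgery (pneumonectomy, PNX). They were chosen by name alone: a gene symbol that opens with Hist1h, Hist2h, Hist3h or Hist4h, or that has the form of the newer names for linker and core histone genes. 68 of the 24063 symbols met this rule, and all 68 carry the older form of the name. They comprise 6 H1 genes, 18 H2A genes, 19 H2B genes, 12 H3 genes and 13 H4 genes. Hist3h2bb-ps, counted among the H2B genes, is annotated as a processed pseudogene. The study sequenced RNA of ECs that were isolated from lungs of male C57BL6 mice with magnetic beads carrying anti-CD31. The labels give an age of 8 weeks, and the methods of the study give an older one. The sham group, operated on without removal of a lung, and the PNX group have 3 libraries each, and each library was pooled from 2 mice. No mutant allele or drug is given for either group. The libraries were made from poly(A)-selected mRNA with a stranded kit.

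Histones are the proteins that DNA is wound on. H2A, H2B, H3 and H4 form the core of the nucleosome, and H1, the linker histone, binds the DNA where it enters and leaves that core. Most clustered histone genes are transcribed in S phase, when newly made DNA has to be packed. Their mRNAs usually end in a short stem-loop in place of a poly(A) tail, and the stem-loop binding protein Slbp directs the cleavage that forms this end. Some of the genes also give polyadenylated mRNA, for example in cells that have left the cell cycle. A library selected for poly(A) therefore holds these transcripts only in part, and the values below are levels in such libraries, not levels of histone mRNA in the cells.

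The stem-loop can be read in the annotated transcripts, and it is shown because it marks the usual end of these mRNAs. A run of the form GGNNNNTTNNNNNNCC whose first and last 6 bases pair perfectly around a loop of 4 bases was searched after the last amino acid codon, on the transcript's strand. It was found in 44 of the 68 genes. It began 24 to 61 bases after that codon, a distance that includes the stop codon. Of the 76 GENCODE transcripts of the 68 genes, 22 (28.9%) hold it within their last 100 bases, against 3 of 58725 other protein-coding transcripts (0.0051%). The stem and loop are in capitals, with up to 5 bases on either side, in 10 genes that show the 6 forms found (GENCODE vM21, GRCm38).
Hist1h1c: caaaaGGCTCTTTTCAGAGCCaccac
Hist1h1d: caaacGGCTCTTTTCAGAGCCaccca
Hist3h2a: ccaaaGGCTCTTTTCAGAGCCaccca
Hist1h2be: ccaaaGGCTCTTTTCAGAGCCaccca
Hist1h3d: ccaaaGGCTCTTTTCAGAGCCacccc
Hist2h2ac: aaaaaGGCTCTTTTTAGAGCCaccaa
Hist1h3c: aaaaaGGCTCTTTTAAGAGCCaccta
Hist1h4d: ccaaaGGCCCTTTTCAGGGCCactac
Hist1h4i: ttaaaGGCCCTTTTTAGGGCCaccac
Hist1h4b: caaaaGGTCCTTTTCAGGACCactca
The form in the first 5 of these genes occurs in 26 of the 44 and in no H4 gene. The H4 genes have forms of their own: 7 share that of Hist1h4d, 2 that of Hist1h4i and 2 that of Hist1h4b. The form of Hist1h3c is shared by 6 genes, and that of Hist2h2ac is its own. The pattern was not found in the annotated transcripts of 24 genes, Hist1h1b, Hist1h2bc and Hist2h2be among them, which says only that these letters are not in those transcripts. Some of these transcripts end too soon to hold it: that of Hist1h2bn has 381 bases, 378 of them coding.

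54 of the 68 genes lie on chromosome 13, between 21715763 and 23934851 (GRCm38). Another 10 lie on chromosome 3 between 96219865 and 96270132, 3 on chromosome 11 between 58948920 and 58956830, and Hist4h4 is on chromosome 6. Of the 18 H2A genes, 13 stand head to head with an H2B gene, with 173 to 306 bases between the annotated starts. The closest pair, at 173 bases, is Hist3h2a with the pseudogene Hist3h2bb-ps. Promoters of 300 bases (250 before the start and 50 after it, RefSeq, GRCm38.p6) were matched for 62 of the 68 genes. The motif CCAAT, read on both strands, occurred in 53 of the 62 (85.5%), against 41.1% of 27025 promoters of all genes. It was present in every matched H1, H2A, H2B and H3 promoter and in 3 of 12 H4 promoters. TATAAA occurred in 35 of the 62 (56.5%), against 15.7% of all promoters. AAACACA, the H1 box, occurred in 5 of 6 H1 promoters, against 8.22% of all. ATTTGCAT, the octamer, occurred in 7 of 18 H2A and 7 of 16 H2B promoters, against 1.97% of all, and in none of the H1, H3 or H4 promoters. Promoters of head-to-head genes overlap, so the same site can be counted for both genes, as with the octamer of Hist1h2ae and Hist1h2bg. The motif counts are therefore not counts of separate sites. In no member promoter did occurrences of different motifs overlap. Shown here are the 250 bases before the start of Hist1h1b (chr13:21780626-21780875, minus strand), Hist1h1c (chr13:23738557-23738806, plus strand) and Hist1h4i (chr13:22041363-22041612, minus strand). They stand for the gene that passed a test below, the H1 gene with the highest level and the H4 gene with the highest level, with these motifs in capitals.
Hist1h1b: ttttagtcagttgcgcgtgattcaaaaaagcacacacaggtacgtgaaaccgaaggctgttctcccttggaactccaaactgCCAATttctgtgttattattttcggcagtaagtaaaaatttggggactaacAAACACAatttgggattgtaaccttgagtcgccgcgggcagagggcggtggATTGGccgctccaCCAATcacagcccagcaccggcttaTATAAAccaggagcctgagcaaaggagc
Hist1h1c: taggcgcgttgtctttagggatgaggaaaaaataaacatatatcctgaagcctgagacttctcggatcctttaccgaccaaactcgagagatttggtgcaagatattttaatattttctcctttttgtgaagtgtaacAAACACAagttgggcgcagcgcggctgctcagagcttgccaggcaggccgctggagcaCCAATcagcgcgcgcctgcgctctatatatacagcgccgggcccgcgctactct
Hist1h4i: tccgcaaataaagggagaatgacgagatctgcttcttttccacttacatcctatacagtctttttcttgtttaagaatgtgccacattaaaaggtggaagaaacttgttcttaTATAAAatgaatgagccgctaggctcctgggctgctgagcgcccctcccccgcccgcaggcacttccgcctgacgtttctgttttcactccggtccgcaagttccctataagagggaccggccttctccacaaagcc
Both H1 promoters hold the H1 box and CCAAT, the promoter of Hist1h1b with a TATAAA as well. That of Hist1h4i holds TATAAA and no CCAAT. A motif match describes the letters only, and no binding was measured.

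The libraries were deep and, for the histone genes, still thin. Total counts per library ran from 29526989 to 81282871, lowest in replicate 3 of either group. The labels mark replicates 1 and 2, in sham and in PNX alike, as re-used, and do not say from where. Within a group these 2 libraries differed little beyond counting error (chi-square per degree of freedom 1.75 in sham and 1.57 in PNX, against 67.9 to 86.4 for pairs with replicate 3). They were therefore summed to 1 sample, so that n = 2 per group. The marked libraries (the re-used set) and replicate 3 were taken as 2 sets that the groups share, an inference from the mark. With n = 2 the exact two-sided permutation test of a single value cannot go below p = 0.333. The p-values of the fits without a replicate block rest on the spread between these pooled samples and also on spread estimated across genes. With the block, the difference between the sets is taken out and the 4 samples leave 1 residual degree of freedom. Those p-values therefore rest largely on spread estimated across genes, and do not measure the spread between the sets. All 10 endothelial markers were detected, summing to 9736 to 12075 CPM (the count scaled to the library's total) in sham and 8514 to 9766 in PNX. Epithelial markers summed to 9513 to 9888 in sham and 2919 to 6534 in PNX, with 2 of 10 called lower in the fit with the replicate block described below. Fibroblast and mural markers summed to 1125 to 1343 and 2606 to 3452, with 4 of 10 called higher (Col1a1, Col1a2, Dcn and Lum). The list did not move as a whole: 7 of 10 lay above 0, and Pdgfra (-0.49), Tcf21 (-0.34) and Pdgfrb (-0.095) lay below. Leukocyte markers summed to 2737 to 5281 and 3503 to 4927, with 2 of 10 called higher and 6 of 10 above 0. In the same fit 645 of all 16598 genes were called higher and 204 lower, and none of 6 erythroid markers was called. The part of these shifts in the histone values was not tested. In bulk RNA, fewer cells of a type and less RNA per cell cannot be told apart.

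The histone genes were low, and a few of them held most of the counts. 62 of the 68 had at least 1 count in some library. Hist1h2aa, Hist1h2ao, Hist1h2ap, Hist1h2ba, Hist1h2bq and Hist1h2br had none. For such a gene a count of 0 allows up to 3 counts in a library, and this floor covers counting error only. In TPM, a share of the library after division by transcript length, which allows levels of different genes to be compared, 3 genes had a mean above 20 over the 6 libraries, 16 lay between 1 and 20, and 49 were below 1. The 3 were Hist1h2bc with 157, Hist1h1c with 65.1 and Hist3h2a with 44.6 TPM. The 5 genes with the most counts (these 3 with Hist2h2be and Hist1h2be) held between 86.2% and 89.4% of all histone counts in every library.

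Among the genes with a stem-loop found, those with short annotated ends had the lower median level. The 22 genes whose annotation ends within 100 bases of the stem-loop had a median of 0.386 TPM, highest 2.43. The 13 genes with over 100 and up to 1000 bases after it had a median of 1.13, and the 9 with over 1000 bases a median of 1.09 TPM. In these 22 genes lay 3.34% of all histone counts, and in the 13 and the 9 genes with longer ends 26.0% and 19.4%. The 24 genes with no stem-loop found held the largest share, 51.3%, at a median of only 0.323 TPM. Single genes weighed heavily in such shares: of the 8325 counts in the 13 genes, 6910 were of Hist1h1c. Hist1h1c has 840 annotated bases after its stem-loop and Hist3h2a has 1643. Likeness to other genes went with level as well. In 16 genes over 80% of 75-base windows of the transcript recur in another gene, and their median was 0.0914 TPM, with 4 of the 6 genes without counts among them. In 17 genes with under 20% of such windows the median was 0.836 TPM. How reads that match several genes were counted is not given in the sources used here, so the level of a gene with close copies is uncertain. These splits describe 68 related genes, not independent units, and the part of either property in the levels was not tested.

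**Figure D1:**
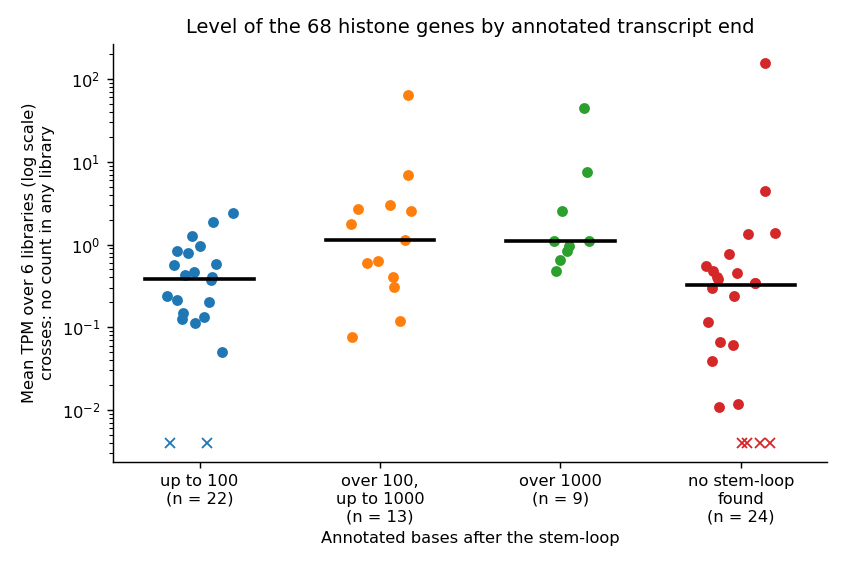
Mean TPM over the 6 libraries (log scale) of the 68 histone genes, grouped by the annotated bases after the stem-loop; each point is a gene, crosses are genes without a count, and black bars are medians (0.386, 1.13, 1.09 and 0.323 TPM). No gene whose annotation ends within 100 bases of the stem-loop exceeded 2.43 TPM, and the highest gene, Hist1h2bc, stands among those with no stem-loop found.

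The comparison of PNX with sham addresses whether histone transcripts in ECs differed during compensatory lung growth. 30 of the 68 genes had enough counts to be tested: 5 H1, 6 H2A, 7 H2B, 4 H3 and 8 H4 genes. Of these, 7 passed the filter through the PNX samples alone and 1 through the sham samples alone, so counts over the 30 describe the genes that passed and support nothing about the family. In edgeR's quasi-likelihood test on the 4 samples, none of the 30 was called at an adjusted p under 0.01 with an absolute log2 fold change above 1. Among all 16598 genes tested, 0 (0.0%) were called in that fit. At an unadjusted p under 0.05, 1 histone gene and 2076 of all genes passed. DESeq2 and limma-voom on the same 4 samples called 0 histone genes as well, with 572 and 0 calls among all genes. With the replicate block, which compares the groups within each set, 1 of the 30 was called (3.33%), against 849 of all genes (5.12%). With the 6 libraries as separate replicates, 1 of 26 was called, against 2.51% of all genes. A single histone gene called among so few tested is near that background.

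The called gene in both fits was Hist1h1b (H1f5), a linker histone gene. Its counts were 3, 7 and 2 in the sham libraries and 28, 31 and 13 in the PNX libraries. Every PNX library, at 0.377 to 0.473 CPM, lay above every sham library, at 0.0372 to 0.0977 CPM. The log2 fold change was 2.69 with the block (SE 0.48, edgeR adjusted p = 0.00871) and 2.71 without it (SE 0.48, edgeR adjusted p = 0.127). It was close in both sets, at 2.68 in the re-used set and 2.88 in replicate 3. The ratio of summed counts, scaled to library size, was 6.57, with a 95% Clopper-Pearson interval of 3.54 to 13.3 for counting error alone. Hist1h1b reached the filter through the PNX samples alone. Its call with the block was lost when any 1 library of the re-used set was left out (adjusted p 0.0115 to 0.0259), when another scaling was used, and in DESeq2 with the block (adjusted p = 0.0908). No 75-base window of its annotated transcript recurs in another gene.

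The other linker histone genes did not pass the test. Hist1h1c (H1f2), by far the highest of them, had 16.4, 16.9 and 16.1 CPM in sham, against 24.4, 23.7 and 15.8 CPM in PNX. The re-used PNX libraries were above all sham libraries and replicate 3 below them, and the log2 fold change with the block was 0.27 (SE 0.14, edgeR adjusted p = 0.197). Hist1h1d had 22, 19 and 1 counts in sham and 27, 32 and 18 in PNX. The groups did not overlap in CPM, but the fold differed widely between the sets, with a log2 ratio of 0.65 in the re-used set and 4.34 in replicate 3, where the sham library held 1 count. Hist1h1d, too, reached the filter through the PNX samples alone. Its log2 fold change with the block was 1.29 (SE 0.61, edgeR adjusted p = 0.178). Hist1h1e (66, 57 and 19 counts in sham, 64, 68 and 19 in PNX) and Hist1h1a (8, 7 and 4 in sham, 11, 8 and 1 in PNX) overlapped between the groups. The summed H1 level was 17.0 to 18.1 CPM in sham, against 17.5 to 26.1 CPM in PNX.

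**Figure D2:**
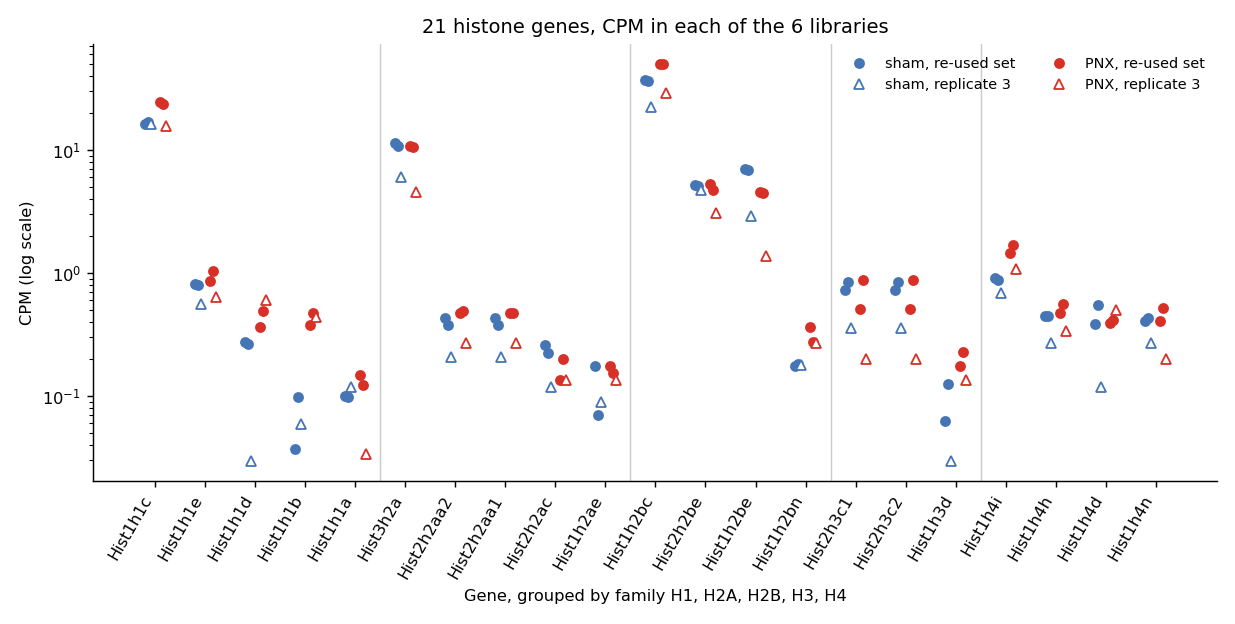
CPM (log scale) of 21 histone genes in each of the 6 libraries, ordered by family and level; blue is sham, red is PNX, filled circles are the re-used set (replicates 1 and 2) and open triangles replicate 3. The PNX libraries lie above all sham libraries for Hist1h1b, Hist1h1d, Hist1h2bn, Hist1h3d and Hist1h4i, and most high genes are lower in replicate 3 in both groups.

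Among the H2A genes, whose products pair with H2B in the nucleosome core, no gene was called. Hist3h2a, the highest, had 11.3, 10.9 and 6.06 CPM in sham, against 10.8, 10.6 and 4.56 CPM in PNX. The sets differed more than the groups, and the log2 fold change with the block was -0.20 (SE 0.14, edgeR adjusted p = 0.338). Its exons overlap those of Trim17 on the same strand. Hist2h2aa1 and Hist2h2aa2, whose 75-base windows all recur in another gene, had 35, 27 and 7 counts each in sham and 35, 31 and 8 or 35, 32 and 8 counts in PNX. They cannot be read as separate measurements. Hist1h2ae, at 14, 5 and 3 counts in sham and 13, 10 and 4 in PNX, reached the filter through the PNX samples alone and had the highest log2 fold change of the tested H2A genes at 0.42 (SE 0.52), and Hist2h2ac, at 21, 16 and 4 against 10, 13 and 4, the lowest at -0.42 (SE 0.49). The groups overlapped for both.

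The H2B genes held the largest part of the histone counts in every library, between 53.7% and 58.3%, most of them in Hist1h2bc. Hist1h2bc (H2bc4) had 36.9, 36.6 and 22.3 CPM in sham, against 49.6, 50.2 and 28.9 CPM in PNX. Within either set PNX was higher, with a log2 ratio of 0.44 in the re-used set and 0.37 in replicate 3, while across sets the groups overlapped. The log2 fold change was 0.41 both with the block (SE 0.08, edgeR adjusted p = 0.0146) and without it (SE 0.37, edgeR adjusted p = 0.744), and under the size needed for a call. Both of its RefSeq transcripts were higher in PNX within the sets, with 1830, 1624 and 457 against 2219, 1956 and 494 counts for one and 1140, 995 and 294 against 1469, 1338 and 367 counts for the other. The counting rule is not given, so a read that matches both transcripts may be in either count or in both. They cannot be read as separate measurements, and their sum may hold a read more than once. Of the 75-base coding windows of Hist1h2bc, 95.1% recur in another clustered histone gene.

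Hist1h2be (H2bc6) was the tested member with the lowest log2 fold change. It had 7.02, 6.82 and 2.88 CPM in sham, against 4.56, 4.50 and 1.37 CPM in PNX. PNX was lower within either set, with log2 ratios of -0.61 and -1.07, and the fit with the block gave -0.78 (SE 0.18, edgeR adjusted p = 0.0225), which was no call. Without the block it was -0.72 (SE 0.69, edgeR adjusted p = 0.765). Of its 3 transcripts, 2 had almost the same counts (242 and 241 in the first sham library), and its exons overlap those of Hist1h1e on the same strand, so its summed count may hold a read more than once. Hist2h2be, at 5.16, 5.12 and 4.69 CPM in sham, against 5.27, 4.77 and 3.05 CPM in PNX, had a log2 fold change of -0.28 (SE 0.18, edgeR adjusted p = 0.323). Hist1h2bn, at 14, 13 and 6 counts in sham and 27, 18 and 8 in PNX, did not overlap between groups in CPM and had 0.77 (SE 0.43, edgeR adjusted p = 0.247).

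H3 and H4 form the tetramer at the centre of the nucleosome, and their clustered genes held the fewest counts of the 5 families. Per length the H4 genes were not low, with a median over the family of 1.27 TPM, against 0.355 for H3, 0.933 for H1, 0.446 for H2B and 0.235 for H2A. Of the H3 genes, Hist1h3d had 5, 9 and 1 counts in sham and 13, 15 and 4 in PNX, with a log2 fold change of 1.24 (SE 0.57, edgeR adjusted p = 0.169) and no overlap of the groups in CPM, but it reached the filter through the PNX samples alone. Hist2h3c1 and Hist2h3c2 had identical counts in all 6 libraries (59, 61 and 12 in sham, 38, 57 and 6 in PNX), with a log2 fold change of -0.37 (SE 0.34) and overlapping groups. Hist1h4i (H4c9), the highest H4 gene, had 73, 63 and 23 counts in sham and 108, 111 and 32 in PNX. All PNX libraries, at 1.07 to 1.69 CPM, lay above all sham libraries, at 0.683 to 0.906 CPM, and the log2 fold change was 0.75 (SE 0.26, edgeR adjusted p = 0.0835). The other tested H4 genes ranged from -0.02 in Hist1h4n to 0.56 in Hist1h4k, which, like Hist2h4, reached the filter through the PNX samples alone. Hist1h4d (31, 39 and 4 counts in sham, 29, 27 and 15 in PNX) was lower in PNX in the re-used set and higher in replicate 3.

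Over the 30 tested genes the median log2 fold change was 0.26 with the block and 0.24 without it, beside -0.01 over all genes tested in either fit. It was 0.44 without the block when no filter on low counts was applied (62 genes), 0.42 with the block and no filter, and 0.54 without PNX replicate 3. With the block, 23 of 30 lay above 0 (76.7%), against 48.2% of all genes. Of these 30, 7 passed the filter through the PNX samples alone and 1 through the sham samples alone. Some are close copies, such as Hist2h3c1 and Hist2h3c2, and not separate measurements. The share above 0 therefore describes the genes that passed and supports nothing about the family. In 20 of the 30 the sign was the same in both sets, 15 higher in PNX and 5 lower. No share over all genes was taken for this count, so it cannot be read against a background. The 3 PNX libraries lay above the 3 sham libraries in 5 of 30 (16.7%), against 18.8% of all genes, and below them in 0 of 30, against 17.9% of all genes. A test of these counts was not made.

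**Figure D3:**
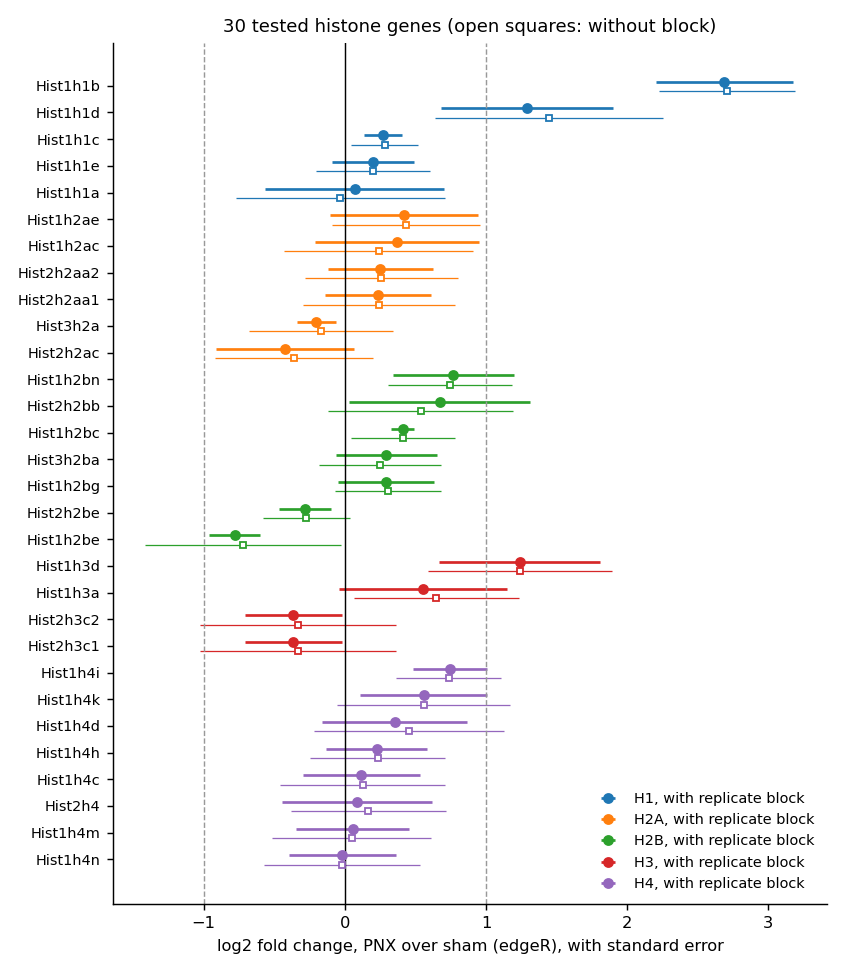
Log2 fold change of PNX over sham with its standard error for the 30 tested histone genes, by family; filled circles are the edgeR fit with the replicate block, open squares the fit without it, and dashed lines mark a log2 fold change of -1 and 1. Hist1h1b, at 2.69, stands apart from the other 29, which range from -0.78 to 1.29.

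The 38 genes too low to be tested, of which 32 had any count, had at most 47 counts each over the 6 libraries. Together they held 1.90% of the histone counts. Their summed counts were 120, 84 and 25 in sham and 182, 159 and 39 in PNX. In CPM this was 1.49, 1.17 and 0.743 in sham and 2.45, 2.42 and 1.31 in PNX, so that PNX was higher within either set while PNX replicate 3 lay below the first sham library. The ratio of scaled counts was 1.82 (1.54 to 2.15, Clopper-Pearson, counting error only), at 1.82 in the re-used set and 1.76 in replicate 3. Among them were Hist1h3c with 4 counts in sham and 26 in PNX and Hist1h2bm with 5 and 21, both named after their values were seen. For Hist1h3c the ratio was 7.12, with an interval of 2.47 to 28.1, and for Hist1h2bm 4.60, with an interval of 1.69 to 15.6. Hist1h2bk and Hist4h4 were likewise named after their values were seen. Hist1h2bk had no count in the 3 sham libraries and 5, 3 and 2 in the PNX libraries. Hist4h4 went the other way, with 30 counts in sham and 17 in PNX and a ratio of 0.621 (0.321 to 1.16).

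The sum over all 68 genes was 86.7, 86.5 and 58.2 CPM in sham, against 107, 108 and 62.2 CPM in PNX. Over the 4 samples this was 72.7 ± 21.2 against 85.0 ± 31.2 CPM (SD, n = 2), a log2 ratio of 0.22 that was smaller than the spread between the sets. Within the sets the log2 ratio was 0.31 in the re-used set and 0.10 in replicate 3. The value depended on replicate 3 of either group, at -0.028 without sham replicate 3 and 0.57 without PNX replicate 3. Without the 5 genes of highest count the log2 ratio was 0.43, and the ratio of scaled counts over these 63 genes was 1.34 (1.26 to 1.43, counting error only), against 1.21 (1.18 to 1.24) over the 5. By family, the log2 ratio over the 4 samples was 0.32 for H1, -0.10 for H2A, 0.24 for H2B, 0.15 for H3 and 0.42 for H4. In the H1, H2B and H4 families every PNX library exceeded the sham libraries of its own set, in H4 at 4.23, 5.03 and 2.98 CPM against 3.61, 3.61 and 2.02 CPM. In H2A and H3 it did not.

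**Figure D4:**
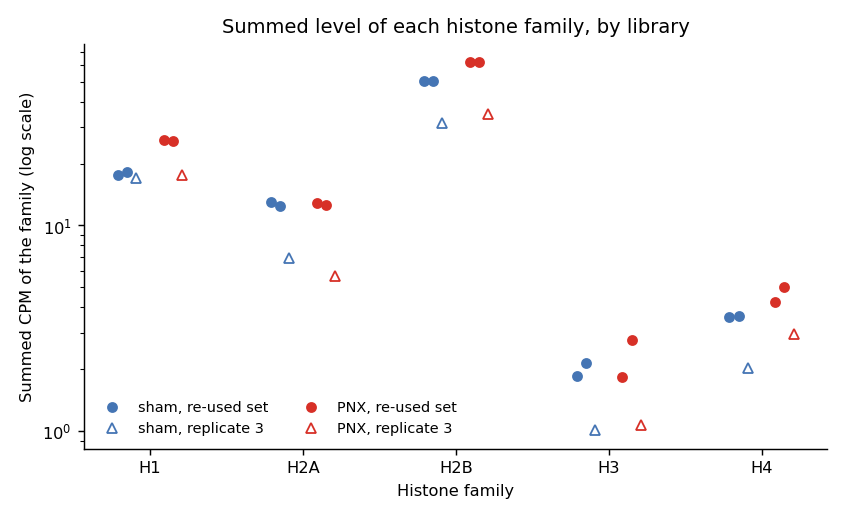
Summed CPM (log scale) of the 5 histone families in each of the 6 libraries; blue is sham, red is PNX, filled circles are the re-used set and open triangles replicate 3. Replicate 3 lies below the re-used libraries of the same group in every family, and its H1 sums (17.0 and 17.5 CPM) almost coincide.

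The lists of genes that act with the clustered histones are given from the fit with the block, and were written with earlier results of these data known. In that fit 645 of all 16598 genes tested were called higher and 204 lower. Of 14 histone variant genes outside the clusters, most of whose mRNAs are polyadenylated, 11 were tested and 3 were called higher with the block, H2afx, Cenpa and H1fx, with a median of 0.32. H2afx, which is phosphorylated at DNA breaks, had 7.62, 8.57 and 9.30 CPM in sham, against 22.4, 22.5 and 22.3 CPM in PNX (log2 fold change 1.38, SE 0.11, edgeR adjusted p = 0.000187). Cenpa, the H3 variant of centromeres, had 5.94, 5.96 and 8.44 CPM in sham, against 21.1, 21.8 and 26.0 CPM in PNX (log2 fold change 1.74). For both, every PNX library lay above every sham library. H2afz had a log2 fold change of 0.83 and an edgeR adjusted p of 0.00076, below the size needed for a call, and H3f3a and H3f3b, which encode the replacement histone H3, had 0.04 and 0.11.

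Of 20 genes of histone pre-mRNA 3′ processing, 0 were called with the block, at a median log2 fold change of 0.14. For a list of this size that is near the share of all genes called in that fit, 849 of 16598 (5.12%). Slbp had 47.5, 47.6 and 53.8 CPM in sham, against 92.2, 96.8 and 92.3 CPM in PNX. Its log2 fold change was 0.89 (SE 0.08, edgeR adjusted p = 0.000568), under the size needed for a call, although every PNX library lay above every sham library. Npat, the activator of histone gene transcription, had 0.06, and Casp8ap2, a factor of the same nuclear bodies, 0.02. Of 19 histone chaperones, 3 were called higher: Asf1b at 2.01, Chaf1a at 1.70 and Chaf1b at 1.93, which hand histones to newly replicated DNA. The chaperones of replication-independent deposition Hira, Daxx and Atrx had 0.04, 0.03 and -0.23.

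Of 22 DNA replication genes, 19 were called higher with the block, with a median log2 fold change of 1.36 and summed levels of 310 to 374 CPM in sham, against 746 to 943 CPM in PNX. Of 12 mitosis genes, all were called higher, with a median of 2.94 and sums of 82.8 to 147 CPM in sham, against 702 to 1041 CPM in PNX. Among all 16598 genes tested, 645 were called higher with the block. Without the block none of any of these lists was called in edgeR, as for all genes. The median over the 30 tested clustered histone genes was 0.26. The summed level is another measure, taken without the block, and is not comparable with these medians. Its log2 ratio over the 4 samples was 0.84 for the 38 untested genes and 0.22 for all 68 genes. The difference between the lists was not tested. RNAs other than histone mRNA that carry no poly(A) tail were scarce in these libraries: 8 of 13 listed were in the files, and they summed to 0.475 to 0.712 CPM in sham, against 0.369 to 0.888 CPM in PNX. Of these, 3 were tested and none was called in edgeR with or without the block.

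**Figure D5:**
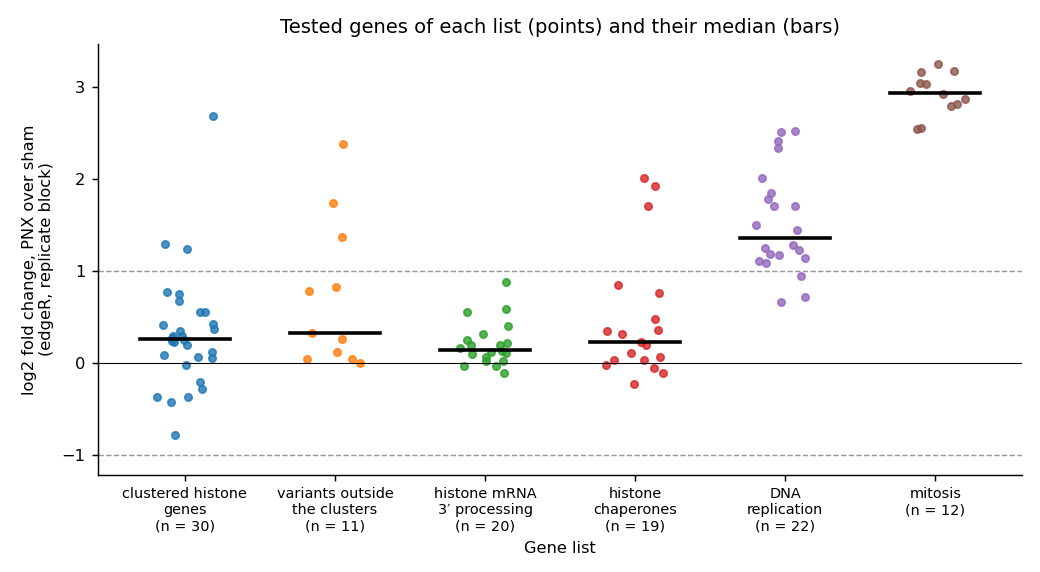
Log2 fold change of PNX over sham (edgeR, replicate block) for the tested genes of 6 lists; each point is a gene, black bars are medians, and dashed lines mark -1 and 1. The medians are 0.26 for the clustered histone genes, 0.32 for variants outside the clusters, 0.14 for 3′ processing, 0.23 for chaperones, 1.36 for DNA replication and 2.94 for mitosis.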

How the data were processed

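Bulk RNAseq of 3 sham and 3 PNX libraries was used. The labels' processing notes name STAR and mm10; no source used here gives the counting rule or versions. For each library the authors deposited unnormalized counts of 33068 RefSeq transcripts, with the FPKM and TPM that the authors computed from them. The deposited FPKM values were not analysed, and the deposited TPM values, summed per symbol, served only to compare levels between genes. Counts were summed per symbol. Replicates 1 and 2 were summed as near duplicates. Genes were fitted over the whole table in edgeR 4.0.16 (R 4.3.3; TMM, filterByExpr, quasi-likelihood test, Benjamini-Hochberg adjustment over all tested genes), and checked on simulated counts; DESeq2 1.42.0 and limma 3.58.1 (voom) were alternatives. A call needed a log2 fold change beyond 1 in either direction, at an adjusted p under 0.01. CPM used TMM-scaled library sizes. SE is the log2 fold change divided by the square root of F, an approximation.

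In either group, replicates 1 and 2 carry the mark re-used in the labels; that these and replicate 3 are 2 batches which pair the groups is an inference. Over 16598 genes the change from the re-used to the other sham sample went with that in PNX (Spearman's rho = 0.736 and Pearson's r = 0.761, across genes, which are not independent). The replicate block has these 2 sets as its levels. Intervals are 95% Clopper-Pearson intervals of the PNX share of the counts and cover counting error only.

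Named by rule were, in each family, the 3 tested genes of highest mean CPM and those with the highest and lowest log2 fold change with the block (21 genes), besides members of the lists. The members and lists were chosen with earlier results of these data known. Annotation was GENCODE vM21. Transcript windows had 75 bases.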

Additional observations from a re-analysis of the deposited data

How the results depend on the processing

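With 4 samples the histone genes called were 0 and all genes called 0. With the replicate block they were 1 and 849, with an adjusted p under 0.05 and the block 1 and 1186, with 6 libraries 1 and 409, with 6 libraries and the block 1 and 1104, and in DESeq2 with 6 libraries 1 and 921. With no filter and the block they were 1 and 985, and with the transcript of highest total and the block 1 and 727; these 2 fits, and the sum without 5 genes, were chosen after seeing the data. DESeq2 called 0 histone genes and 572 genes in all, 810 in all with the block. With the block and DESeq2 size factors, upper-quartile scaling or library size alone, 0 histone genes and 624, 646 and 629 genes were called. Leaving out 1 library, 0 histone genes were called in each fit, and all genes called ranged from 0 to 2 without the block and from 485 to 863 with it (671 without sham replicate 1 and 668 without sham replicate 2); without replicate 3 of either group no fit with the block was possible. The cause of these differences was not tested.

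The median log2 fold change of tested histone genes was 0.44 with no filter on low counts (62 genes), 0.42 with no filter and the block, and 0.21 to 0.54 with 1 library left out, highest without PNX replicate 3. The log2 ratio of the summed level ranged from -0.028 without sham replicate 3 to 0.57 without PNX replicate 3, and was 0.43 without the 5 genes of highest count. Each of these 2 libraries is the only one of its group not marked as re-used.

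Hist1h1b kept a log2 fold change of 2.30 to 3.22 over the settings in which it was tested (not that of at least 10 counts in every library), with adjusted p from 0.000126 to 0.318. Of the other named genes, each uncalled, Hist1h1a (-0.031) turned to 0.069 with the block, to 0.074, 0.071 and 0.087 with the block and DESeq2 size factors, upper-quartile scaling or library size alone, and to 0.044 and 0.10 with the block and no filter or the highest transcript. Hist1h4n (-0.022) turned to 0.045 with 6 libraries, 0.053 with these and the block, 0.037 in DESeq2 with 6 libraries and 0.0065 with the highest transcript and the block, and to 0.011 and 0.11 with the block and without sham replicate 2 or PNX replicate 1. Leaving out 1 library turned the sign of 11 named genes, whose log2 fold changes without the block ranged from 0.073 to 0.35 for Hist1h1a, -0.0029 to 0.42 for Hist1h1e, -0.056 to 0.70 for Hist1h4d, -0.023 to 0.45 for Hist1h4h, -0.25 to 0.34 for Hist1h4n, -0.069 to 0.51 for Hist2h2aa1, -0.054 to 0.54 for Hist2h2aa2, -0.33 to 0.022 for Hist2h2be, -0.72 to 0.16 for Hist2h3c1, -0.72 to 0.16 for Hist2h3c2 and -0.52 to 0.30 for Hist3h2a.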
